A study of Homo sapiens with 2 samples.

Results

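ERα-bound regions were examined around the transcription start sites of 6 genes that carry solute carrier symbols: SLC7A5, SLC2A1, SLC39A6, SLC9A3R1, SLC12A2 and SLC27A2. A peak belonged to a gene when its centre lay within 100 kb of the start site on either side. This placed 24 of the 12688 peaks of the list (0.189%) near the 6 genes, which lie on 6 different chromosomes, so no peak was counted for more than 1 gene. The list comes from T47D, an established human breast cancer cell line that expresses oestrogen receptor α (ERα). The cells had been held without steroids for 48 h and then exposed to 10 nM 17β-estradiol for 45 min, and both libraries come from such treated cells: 1 immunoprecipitated with the H-20 antibody to ERα, and 1 of input DNA with no antibody. There was no untreated sample and no replicate, so the values describe listed occupancy after hormone, carry no replicate error and allow no test between conditions. The read depth behind each peak is unknown. The start sites and all peak positions follow the hg19 build.

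ERα is a nuclear receptor that, once it has bound estradiol, attaches to DNA at oestrogen response elements or through other factors, and most of its sites in breast cancer cells lie away from promoters. Solute carriers are membrane proteins that move nutrients and ions across cell membranes, and growing tumour cells depend on several of them for fuel and building blocks. SLC39A6, also called LIV-1, is known as an oestrogen-induced gene of breast cancer cells. SLC9A3R1 is the exception in this group: in spite of its symbol it encodes NHERF1, a scaffold with PDZ domains that holds transporters and receptors at the membrane, and it is not itself a carrier.

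The peaks were very unevenly shared among the genes. SLC9A3R1 and SLC7A5 each had 8 peaks within 100 kb, together 16 of the 24 (66.7%). SLC2A1 had 5, SLC27A2 had 2, SLC39A6 had 1 and SLC12A2 had 0. Within 20 kb of the start sites the numbers were 5 for SLC9A3R1, 3 for SLC7A5, 1 each for SLC2A1 and SLC27A2, and 0 for SLC39A6 and SLC12A2, or 10 peaks in all. Thus 5 of the 6 genes had a peak within 100 kb and 4 of the 6 had one within 20 kb.

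As background, chromosomes 1 to 22 and X were divided into fixed tiles as wide as these windows. Of 15169 tiles of 200 kb, 36.4% held at least 1 peak centre, and of 75895 tiles of 40 kb, 11.3% did. The median tile of either width held 0 peaks, against a median of 3.5 peaks per gene within 100 kb and 1 within 20 kb. Tiles include gene-poor and unsequenced DNA and are not centred on genes, and no list of other hg19 start sites was used here, so nothing particular to these genes follows from the comparison. With 8 peaks the exact Poisson 95% interval runs from 3.45 to 15.8, with 5 from 1.62 to 11.7, with 2 from 0.242 to 7.22 and with 1 from 0.0253 to 5.57. Only counting error enters these intervals, and they take peaks to be independent although many are clustered. Since the lower bound for 8 peaks lies under the upper bound for 1, the intervals of all 5 genes with a peak overlap. No interval was computed for SLC12A2, with 0 peaks, so nothing is said of it here. Overlap of separate intervals is not a test of a difference between genes, and no such test was made. The order of the genes by count is therefore a description only.

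**Figure D1:**
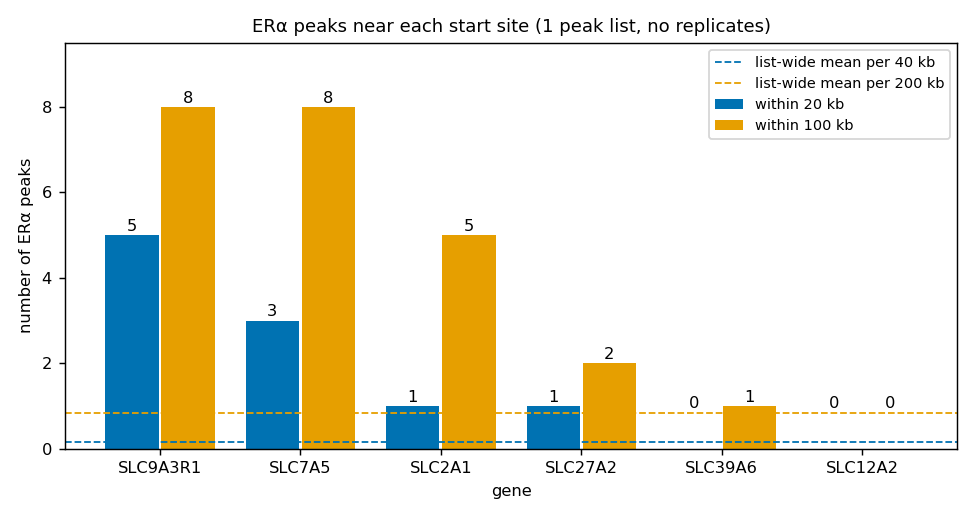
Number of ERα peaks (y axis) with a centre within 20 kb (blue bars) or 100 kb (orange bars) of the start site of each gene (x axis), in the 1 deposited list; dashed lines give the list-wide mean of 0.167 peaks per 40 kb and 0.833 per 200 kb. SLC9A3R1 and SLC7A5 share the highest count at 100 kb, and SLC12A2 has 0 at both distances.

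None of the 24 peaks reached across a start site. The closest was at SLC27A2, where the peak centre lay 0.54 kb upstream and the nearer edge 312 bp upstream. Only SLC27A2 had a peak centre within 1 kb, and SLC9A3R1 was the only other gene with one within 5 kb. SLC7A5 followed with its nearest centre at 8.62 kb, SLC2A1 with 14.32 kb, SLC39A6 with 29.84 kb and SLC12A2 with 566.48 kb. Tile shares were taken for the 20 and 100 kb windows only, so the counts within 1 and 5 kb have no background beside them. Relative to the direction of transcription, 8 of the 24 peaks lay upstream of the start site and 16 downstream. Most of the downstream peaks were at SLC9A3R1 (7, against 1 upstream) and SLC7A5 (6, against 2 upstream). SLC2A1 had 3 upstream and 2 downstream, SLC27A2 had 2 and 0, and SLC39A6 had 0 and 1. Where these positions fall in exons, introns or untranslated regions was not determined, because no hg19 gene models were used here.

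**Figure D2:**
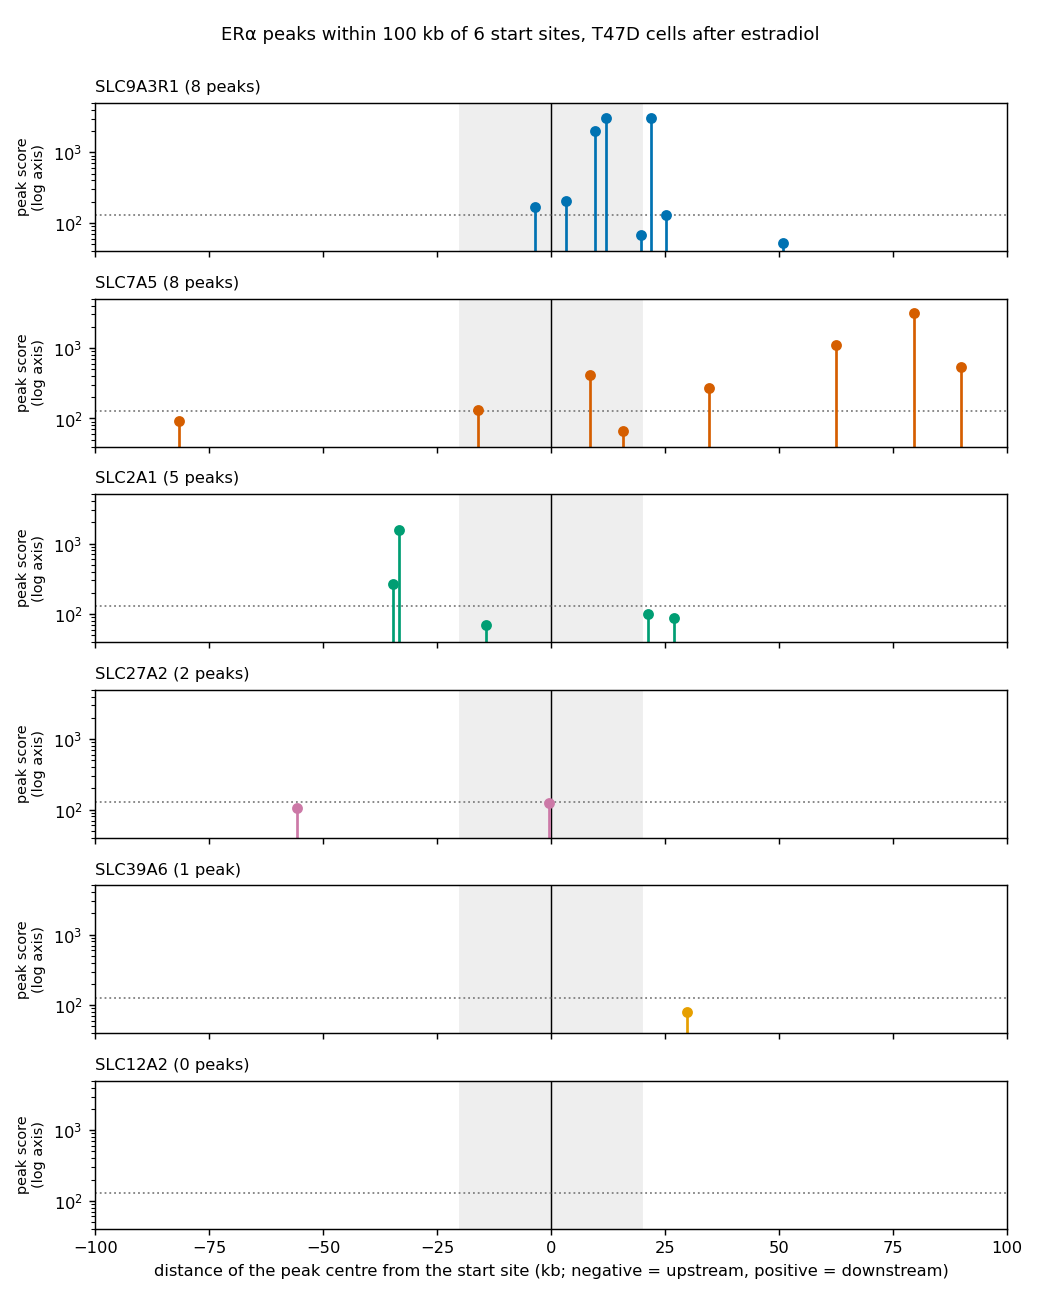
Position and score of every ERα peak within 100 kb of each gene; the x axis is the distance of the peak centre from the start site in kb (negative upstream), the y axis is the deposited score on a log axis, the grey band marks 20 kb on each side and the dotted line the median score of the whole list, 128.3. The high peaks of SLC9A3R1 crowd downstream of its start site, those of SLC7A5 lie far downstream, and the panel of SLC12A2 is empty.

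Promoter sequences are shown for 3 genes that mark the range of these patterns: SLC27A2 with a peak within 1 kb, SLC9A3R1 with peaks on both sides within 4 kb, and SLC12A2 without a peak. Each is the stretch of 250 bases before the RefSeq start, 5′ to 3′ along the gene, from the GRCh38.p14 build. In that build, whose positions cannot be set beside the hg19 positions of the peaks, they are chr15:50181946-50182195, chr17:74748378-74748627 (listed there as NHERF1) and chr5:128083516-128083765, all on the plus strand. Capitals mark GGTCA, a single arm of the oestrogen response element, and GGGCGG, the box bound by SP1 family factors, on either strand, so that TGACC and CCGCCC are the same letters read on the other strand.
SLC27A2: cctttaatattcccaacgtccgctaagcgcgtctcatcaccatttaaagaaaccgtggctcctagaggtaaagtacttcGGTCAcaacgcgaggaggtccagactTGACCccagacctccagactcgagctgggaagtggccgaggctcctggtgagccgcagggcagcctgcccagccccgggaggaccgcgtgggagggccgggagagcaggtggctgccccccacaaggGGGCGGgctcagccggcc
SLC9A3R1: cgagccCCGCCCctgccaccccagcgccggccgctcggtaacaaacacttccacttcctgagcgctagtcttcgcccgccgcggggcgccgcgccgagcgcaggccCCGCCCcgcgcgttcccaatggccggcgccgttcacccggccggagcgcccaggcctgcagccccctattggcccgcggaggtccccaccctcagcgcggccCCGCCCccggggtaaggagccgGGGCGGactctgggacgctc
SLC12A2: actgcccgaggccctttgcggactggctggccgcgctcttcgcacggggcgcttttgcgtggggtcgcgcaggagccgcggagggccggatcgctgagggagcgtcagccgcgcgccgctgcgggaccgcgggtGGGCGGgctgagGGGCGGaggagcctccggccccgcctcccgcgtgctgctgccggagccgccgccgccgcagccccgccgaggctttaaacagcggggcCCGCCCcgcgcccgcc

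All 6 genes were found in the RefSeq promoter table. GGTCA occurred in 2 of the 6 stretches, against 32.6% of all 35116 promoters of the table over the same length. SLC27A2 held 2 matches, the first beginning 171 bases before the start and reading along the gene, the second beginning 145 bases before it and reading on the other strand, with 21 bases between them. SLC39A6 held 1 match, 175 bases before its start. The whole element, GGTCA and TGACC with 3 bases between, was found in 0 of the 6 and in 0.0399% of all promoters. GGGCGG was found in 6 of 6, with 4 matches each in SLC7A5 and SLC9A3R1, 3 in SLC12A2, 2 in SLC2A1 and 1 each in SLC39A6 and SLC27A2. Of all promoters, 42.6% held it. The 6 stretches were rich in G and C, from 64.4% in SLC27A2 to 79.6% in SLC7A5 and SLC12A2, against a median of 58.0% over the table. The forkhead letters TGTTTAC and TATTTAC and the AP-1 letters TGAGTCA were found in 0 of the 6, and in 2.98%, 2.39% and 4.2% of all promoters. Letter matches describe these stretches and are not binding sites, and the peak nearest to a start site, that of SLC27A2, ended 312 bp before it, outside a stretch of this length if the RefSeq start and the hg19 start site are the same base, which was not checked.

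SLC9A3R1 had the most compact group of peaks. Its protein, NHERF1, links membrane proteins such as the sodium-proton exchanger to the actin cytoskeleton through ezrin. Of its 8 peaks, 1 lay upstream, on chromosome 17 at 72740810 to 72741447, with its centre 3.63 kb before the start site and a score of 166.91. The score is the authors' value for each peak, of a scale that is not stated. It was used here only to order peaks within the list, whose median was 128.3 and whose highest value was 3230.05.

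The first downstream peak of SLC9A3R1, at 72747728 to 72748414, was 3.31 kb past the start site and scored 205.94. The next pair stood far higher in the list. The peak at 72753481 to 72755212, 9.58 kb downstream, scored 2025.98, above 95.5% of all peaks. Only 800 bp beyond its edge began the peak at 72756013 to 72757751, 12.12 kb downstream, with a score of 3100, a value that 235 peaks of the list share and 34 exceed. A low peak at 72764226 to 72764774, 19.74 kb downstream with a score of 67.09, was the last within 20 kb.

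Just past that distance lay another of the highest peaks, at 72765635 to 72767722, with its centre 21.92 kb downstream and a score of 3087.48, which ranked 274 from the top of the list. The count of 5 within 20 kb thus leaves out 1 of the 3 highest peaks of this gene. Peaks at 72769405 to 72770332 (25.11 kb, score 128.32) and at 72795402 to 72795765 (50.82 kb, score 51.56) completed the group, and the second of these was the lowest of all 24.

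The 3 high peaks near SLC9A3R1 were also wide, at 1732, 1739 and 2088 bp. They were the only ones of the 24 wider than 1500 bp, a width that 167 peaks of the list (1.32%) exceeded. When peaks with edges within 10 kb of each other were merged, the first 7 peaks of SLC9A3R1 became 1 region of 29.52 kb, from 72740810 to 72770332, which spans the start site. Of the 9292 merged regions on chromosomes 1 to 22 and X, 49 (0.527%) held 7 or more peaks. In the part of this SLC9A3R1 region downstream of the start site, gaps of 5066, 800, 6474, 860 and 1682 bp, in order, separated neighbouring peaks. Whether these peaks are separate binding sites or parts of a wider bound stretch was not tested. After merging, SLC9A3R1 had 2 regions within 100 kb in place of 8 peaks.

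SLC9A3R1 lies on a chromosome that is rich in peaks, where 56.3% of 200 kb tiles and 19.4% of 40 kb tiles held one. Within its own chromosome, 3.95% of 200 kb tiles held 8 or more peaks and 0.690% of 40 kb tiles held 5 or more. Over all chromosomes these shares were 1.24% and 0.223%. In the RefSeq gene order its nearest protein-coding neighbours are RAB37 upstream and NAT9 downstream, and the peaks are not assigned to 1 of these genes by position alone.

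SLC7A5 had as many peaks as SLC9A3R1 but spread over a far longer stretch. It encodes LAT1, which exchanges large neutral amino acids such as leucine across the plasma membrane and works as a pair with the SLC3A2 heavy chain. Its 8 peaks ran from 81.54 kb upstream to 90.02 kb downstream on chromosome 16, with 2 upstream and 6 downstream. Within 20 kb there were 3: at 87894036 to 87894927, 8.62 kb downstream with a score of 415.81, at 87886994 to 87887723, 15.74 kb downstream with 65.92, and at 87918833 to 87919397, 16.02 kb upstream with 133.92. The nearest was thus the highest of these, above 77.9% of the list.

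The highest peaks near SLC7A5 lay beyond 20 kb, downstream of the start site. The peak at 87822894 to 87824104, 79.6 kb downstream and 1211 bp wide, scored 3100. Between it and the start site were peaks at 87840358 to 87841027 (62.41 kb, score 1118.21) and at 87868106 to 87868585 (34.75 kb, score 272.57). The farthest of the 8 was at 87812743 to 87813425 (90.02 kb, score 532.62). Downstream, the scores from 34.75 to 90.02 kb were all higher than the median of the list. The farthest upstream peak within 100 kb, at 87984377 to 87984906 (81.54 kb), scored 91.03.

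The limit of 100 kb left out a strong pair upstream of SLC7A5. Peaks at 88047558 to 88048431 and at 88050289 to 88051140, 144.89 and 147.61 kb upstream, scored 1319.78 and 3100. The first peak past the limit on the downstream side, at 190.11 kb, scored 75.08. The nearest protein-coding neighbours in the RefSeq order are CA5A upstream and KLHDC4 downstream. On chromosome 16, 2.44% of 200 kb tiles held 8 or more peaks and 1.86% of 40 kb tiles held 3 or more.

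SLC2A1 had 5 peaks, 4 of them beyond 20 kb. It encodes GLUT1, the glucose transporter that supplies basal glucose uptake in many cells. Its strongest peak lay upstream on chromosome 1 at 43457931 to 43458539, 33.39 kb before the start site, with a score of 1548.62, above 93.4% of the list. A second peak began 669 bp beyond its edge, at 43459209 to 43459705, and scored 264.83. The other upstream peak, at 43438955 to 43439376, was the only one within 20 kb, at 14.32 kb, and its score of 70.99 was above only 25.4% of the list. Downstream, peaks at 43403496 to 43403828 (21.18 kb) and at 43397491 to 43398040 (27.08 kb) scored 101.62 and 86.60, both under the list median.

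The 5 peaks of SLC2A1 all fell within 50 kb, and none lay between 50 and 100 kb. The first beyond 100 kb was 177.06 kb upstream, with a score of 72.29. The peak at 21.18 kb lay just outside the narrower limit, and counting it would give SLC2A1 2 peaks there. On chromosome 1, 4.66% of 200 kb tiles held 5 or more peaks, whereas 12.9% of 40 kb tiles held at least 1. The nearest protein-coding neighbours in order are CFAP144 upstream and ZNF691 downstream.

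SLC27A2 had 2 peaks of middling score, both upstream. The gene encodes FATP2, a very long-chain acyl-CoA synthetase that also serves in fatty acid uptake. The peak next to its start site, on chromosome 15 at 50473618 to 50474081, was 464 bp wide and scored 125.17, above 49.1% of the list. The other, at 50418371 to 50418823, was 55.8 kb upstream and scored 106.50. Downstream of the start site the next peak was 508.36 kb away, and upstream the first beyond 100 kb was at 197.55 kb with a score of 210.67. On chromosome 15, 18.75% of 200 kb tiles held 2 or more peaks and 11.2% of 40 kb tiles held at least 1. SLC27A2 therefore had the nearest peak but neither a high score nor a large number of peaks. Its nearest protein-coding neighbours are ATP8B4 upstream and HDC downstream.

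SLC39A6 had a single peak of low score. The protein, ZIP6, brings zinc into the cell. The peak, on chromosome 18 at 33679282 to 33679745, lay 29.84 kb downstream of the start site, was 464 bp wide and scored 79.64, above 31.1% of the list. No other peak was listed within 500 kb, and the next on the downstream side was 783.77 kb away with a score of 56.83. Upstream, the first peak lay 3394.07 kb from the start site, at 37103125 to 37103720, and scored 1666.25. The start site thus sat near an edge of the fifth longest of the 188 stretches between neighbouring peak centres on chromosome 18, 3423.91 kb against a median of 94.12 kb. Chromosome 18 held a peak in 25.4% of its 200 kb tiles and 7.23% of its 40 kb tiles. The nearest protein-coding neighbours are ELP2 upstream and RPRD1A downstream.

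SLC12A2 had no listed peak within 500 kb. It encodes NKCC1, the cotransporter that carries sodium, potassium and chloride into cells and helps to set cell volume. The nearest peaks on chromosome 5 were 566.48 kb upstream, at 126852815 to 126853194 with a score of 61.82, and 1014.97 kb downstream, at 128434218 to 128434688 with a score of 130.14. The stretch between them, 1581.45 kb from centre to centre, was the 22nd longest of 660 on the chromosome, whose median was 78.67 kb. On chromosome 5, 36.5% of 200 kb tiles held a peak, so 0 in such a window was the more common value. A list of peaks above a threshold does not show that a locus lacks binding. The nearest protein-coding neighbours are CCDC192 upstream and FBN2 downstream.

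**Figure D3:**
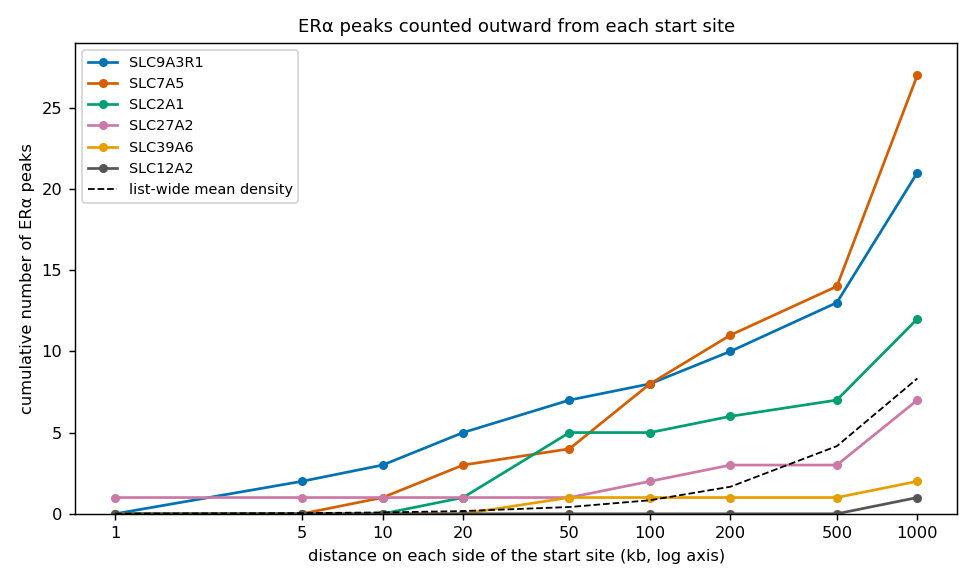
Cumulative number of ERα peaks (y axis) with centres within a given distance on each side of the start site (x axis, kb, log axis) for each gene, with the list-wide mean density as a dashed line. SLC7A5 passes SLC9A3R1 between 100 and 200 kb, and SLC12A2 is at 0 up to 500 kb and at 1 at the next distance plotted, 1000 kb, since its nearest peak lies at 566.48 kb.

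The order of the genes depended on the distance counted. Within 10 kb, SLC9A3R1 had 3 peaks, SLC7A5 and SLC27A2 had 1 each, and the other genes had 0. Within 50 kb, SLC9A3R1 led with 7, ahead of SLC2A1 with 5 and SLC7A5 with 4. At 200 kb SLC7A5 came first with 11, followed by SLC9A3R1 with 10, SLC2A1 with 6, SLC27A2 with 3, SLC39A6 with 1 and SLC12A2 with 0. At 1000 kb the same order held, with 27, 21, 12, 7, 2 and 1 peaks. At the list-wide mean of 4.17 peaks per Mb, a stretch of 1000 kb on each side would hold 8.33, between the counts of SLC2A1 and SLC27A2.

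Of the 8 peaks near SLC9A3R1, 5 lay within 20 kb (62.5%), against 3 of 8 for SLC7A5 (37.5%) and 1 of 5 for SLC2A1 (20%). With counts this small, the difference between these shares was not tested.

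The highest scores were also found at few of the genes. Of the 24 peaks, 14 (58.3%, with a Wilson 95% interval of 38.8 to 75.5%, for counting error only) reached the list median, and 8 (33.3%, 18.0 to 53.3%) were among the highest-scoring 25% of the list. Both intervals include the 50% and 25% that define these classes. At the top of the scale the shares were larger than in the list: 6 of the 24 (25%, 12.0 to 44.9%) scored 1000 or more, against 10.6% of all peaks, and 2 (8.33%, 2.32 to 25.8%) scored 3100 or more, against 2.12%. The lower bounds of both intervals, 12.0% and 2.32%, lie only just above the list shares of 10.6% and 2.12%. These intervals take the peaks as independent, although 3 of the 6 peaks are close neighbours at SLC9A3R1. The value of 1000 is a round one, and both it and 3100 were chosen after the scores were seen. No test was made, and no excess over the list is drawn from these shares. SLC9A3R1 and SLC7A5 each had 6 peaks that reached the median, and SLC2A1 had 2. Neither SLC27A2 nor SLC39A6 had any.

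The median score was 344.2 for the peaks of SLC7A5, 186.4 for those of SLC9A3R1 and 101.6 for those of SLC2A1. The 6 peaks of 1000 or more numbered 3 at SLC9A3R1, 2 at SLC7A5 and 1 at SLC2A1. Of these 6, 4 lay beyond 20 kb from the start site. Of the 24 peaks, 13 (54.2%) had another peak centre within 10 kb, against 41.4% of all 12647 listed for chromosomes 1 to 22 and X. The 7 peaks of the merged region at SLC9A3R1 are among these 13. The share thus rests largely on 1 locus, and its difference from the list was not tested.

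**Figure D4:**
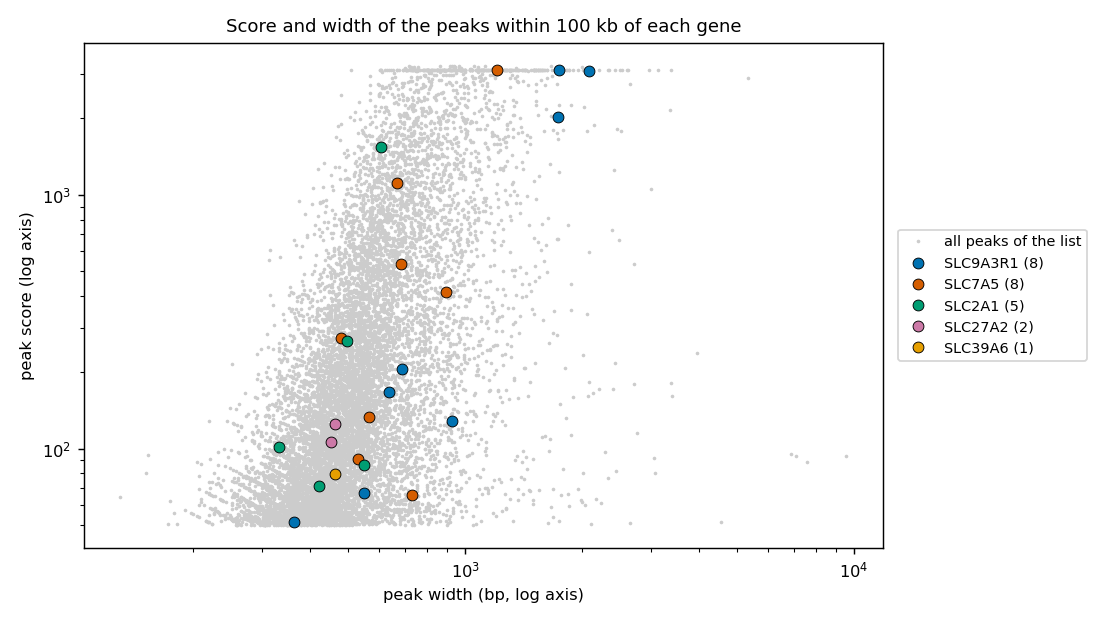
Score (y axis, log axis) against width in bp (x axis, log axis) of all 12688 peaks (grey) and of the 24 peaks within 100 kb of a gene (coloured by gene). The 3 peaks of SLC9A3R1 at 1732 to 2088 bp stand among the widest and highest of the list, while those of SLC27A2 and SLC39A6 lie at 453 to 464 bp under the list median score.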

How the data were processed

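The deposited file is 1 list of ERα peaks over input with no header. Each row has start and end positions (base positions, starts counted from 0; 1 was added for printing) and a score that the authors deposited for each peak, on a scale that is not stated. The peak names carry the MACS prefix, per the file. The submitters' processing notes name hg19, CASAVA 1.8, Bowtie 0.12.9 and HOMER without saying what each was used for. Peak caller version, threshold and read depth: not given in the sources used here.

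Start sites in hg19 came with the definition of the gene group, and the members and motifs were chosen with earlier results of these data known. The naming rule covers every peak within 100 kb of a member and the first beyond on each side. A single peak further out was named after its value was seen. Distances run from peak centre to start site. Tiles used hg19 chromosome lengths carried by pyranges 0.1.4, and full-length tiles only. RefSeq tables of GRCh38.p14 served for gene order and promoter sequence alone. Counting was checked on simulated peaks, where 5 of 5 planted quantities were recovered. With 1 library of each kind no test was run. Python 3.11.15, pandas 2.3.3, NumPy 2.4.6, SciPy 1.17.1 and matplotlib 3.10.9 were used.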

Additional observations from a re-analysis of the deposited data

How the results depend on the processing

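No paired analysis was possible because the list compares 1 immunoprecipitated library with 1 input. Placing peaks by their nearest edge changed 0 of the 12 gene counts and none of the totals. With peaks at or above the median score, 14 peaks lay within 100 kb (3 genes) and 6 within 20 kb (2 genes), while 22.4% of 200 kb tiles and 6.15% of 40 kb tiles held a peak. Among the highest-scoring 25% of the list these were 8 peaks (3 genes), 3 peaks (2 genes), 13.3% and 3.3%. Merging within 10 kb left 14 regions within 100 kb and 5 within 20 kb, at 5 and 4 genes, and 11.1% of 40 kb tiles. The tiles of the 6 chromosomes gave 39.2% and 12.4%, and tiles outside peak-free stretches of over 2 Mb gave 47.8% and 15.1%. SLC9A3R1 and SLC7A5 held the highest 2 counts at both distances under the score limits, whereas merging left SLC9A3R1 with 2 regions within 100 kb, fewer than SLC7A5 with 6 and SLC2A1 with 3, and with 1 within 20 kb, fewer than SLC7A5 with 2 and as many as SLC2A1 and SLC27A2. The unknown depth limits which weak peaks could be listed.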
